A study of Homo sapiens with 96 samples.

Results

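The DNA replication machinery was followed here as 57 genes, the rows of the deposited count table that carry the listed symbols of origin licensing factors, helicase activators, replicative polymerases, the sliding clamp and its partners, fork proteins and enzymes of deoxynucleotide supply, out of 44659 rows in all. All 57 were among the 14948 genes that passed the filter on low counts, and the lowest mean over the 96 libraries was 23.6 counts, for DNA2. The rule is a list of names and sets no threshold on the measured values, but the list was drawn up with earlier results of these data known.

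The samples were A375 cells, an established human melanoma line obtained from ATCC, and the RNA was cytoplasmic. The pretreatment lasted 18 h and was either DMSO or MAPK inhibitors (MAPKi), a mix of 500 nM vemurafenib, which inhibits BRAF, and 500 nM cobimetinib, which inhibits MEK. Each pretreatment was then followed by vehicle, by 100 µg/ml cycloheximide (CHX, an inhibitor of translation elongation), by 25 µM triptolide (spelled tryptolide in the labels; T, an inhibitor of transcription) or by both drugs (TCHX), with CHX added 5 min ahead of T, and cells were taken at 0, 1, 3 and 5 h, which gave 32 groups of 3 libraries. All groups are this single line. The labels name no batch, but the study's methods describe identical batches of cells that were harvested at different times. Time and batch of cells therefore cannot be told apart within an arm. Nothing in the labels says that the 3 libraries of a group came from separate cultures, so p-values measure the spread between these samples, which may be technical.

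Replication of DNA is prepared in G1 phase, when ORC, CDC6 and CDT1 load the MCM2-7 helicase on origins as an inactive ring. In S phase kinases, MCM10, CDC45, GINS and their recruiting factors turn that ring into an active helicase, and polymerases alpha, epsilon and delta, the clamp PCNA with its RFC loader, and the nucleases and ligase of the lagging strand copy the DNA behind it. Many of these genes are transcribed from promoters bound by E2F factors, which are released from RB proteins when cyclin D kinases are active, and cyclin D1 is a well-known output of MAPK signalling.

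The promoters are shown first, and any part of E2F sites in the changes below was not tested. RefSeq promoters on GRCh38.p14, from 250 bases before to 50 bases after the annotated start (300 bases), matched 49 of the 57 genes, and MCM4, MCM5, GINS4, DONSON, POLD3, DNA2, RPA2 and RPA3 had no entry. Any of the E2F-type strings TTTCCCGC, TTTCGCGC, TTTGCCGC and TTTGGCGC, on either strand, stood in 22 of the 49 (44.9%), against 592 of 11024 promoters of tested genes (5.37%) and 908 of 27305 promoters in all (3.33%). In 16 of the 22 the match nearest to the start lay within 50 bases of it. MCM2, MCM3, MCM6 and MCM7 held more than 1 match, counted on each strand, with 4 in MCM6. In MCM2 and MCM6 each match overlapped a match on the other strand, so these counts are higher than the number of separate sites. The CCAAT box stood in 29 of 49 (59.2%, against 37.1% of tested genes and 35.7% of all promoters), and the CHR-type strings TTTGAA or TTCGAA stood in 2 of 49 (4.08%, against 11.7% and 16.6%), with 1 gene in which matches of 2 of these motifs overlapped. The 3 promoters printed are those of POLE and CDC6, the genes with a match whose mRNA was lowered most by MAPKi, and of ORC4, a licensing gene without a match and with a small change. Each is written 5′ to 3′ on the strand of the gene, with the E2F-type match in capitals, which begins 18 bases before the start in POLE (chr12:132687293-132687592, minus strand) and 7 bases after it in CDC6 (chr17:40287629-40287928, plus strand). ORC4 lies at chr2:148021502-148021801 on the minus strand and has no capitals.
POLE: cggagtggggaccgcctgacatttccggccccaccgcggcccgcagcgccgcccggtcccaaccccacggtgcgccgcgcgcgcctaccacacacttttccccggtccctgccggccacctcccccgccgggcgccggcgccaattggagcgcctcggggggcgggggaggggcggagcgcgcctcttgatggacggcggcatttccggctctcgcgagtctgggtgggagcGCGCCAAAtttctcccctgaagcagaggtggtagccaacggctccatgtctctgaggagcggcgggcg
CDC6: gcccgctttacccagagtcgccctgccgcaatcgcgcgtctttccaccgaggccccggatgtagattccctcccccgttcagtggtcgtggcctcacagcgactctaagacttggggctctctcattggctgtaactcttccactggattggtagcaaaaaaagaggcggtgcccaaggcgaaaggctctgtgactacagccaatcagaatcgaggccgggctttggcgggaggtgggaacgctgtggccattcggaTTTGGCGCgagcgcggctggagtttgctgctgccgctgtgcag
ORC4: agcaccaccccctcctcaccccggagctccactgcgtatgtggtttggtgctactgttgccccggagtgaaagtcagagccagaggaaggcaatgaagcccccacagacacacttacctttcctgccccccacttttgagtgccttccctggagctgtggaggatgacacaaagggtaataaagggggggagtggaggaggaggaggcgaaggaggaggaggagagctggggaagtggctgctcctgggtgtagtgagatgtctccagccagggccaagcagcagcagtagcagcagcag

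**Figure D1:**
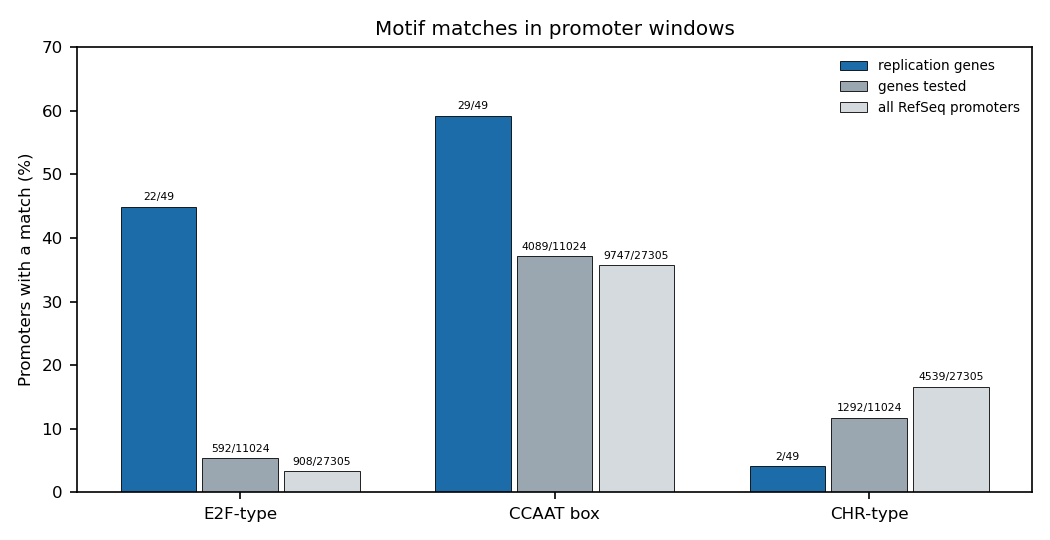
Percent of promoters (vertical axis) that hold each motif, E2F-type, CCAAT or CHR-type, among the 49 replication genes with a promoter entry, the tested genes and all promoters. The E2F-type bar is 44.9% for the replication genes and 5.37% for the tested genes.

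Total counts per library ran from 2381351 to 12520154, and the labels held in 3 targets of the inhibited pathway: vehicle levels in CPM (counts relative to the TMM-scaled total of the library) were 218 to 479 in DMSO and 0.343 to 5.93 in MAPKi for DUSP6, 57.1 to 83.4 and 0.516 to 4.79 for SPRY2, and 333 to 454 and 8.78 to 17.2 for CCND1. The melanocyte markers SOX10, MITF and S100B were present (vehicle medians of 199, 235 and 292 CPM in DMSO and 313, 377 and 214 in MAPKi), DCT had 45.3 and 1973 and PMEL 1.17 and 13.9, MLANA, TYR and TYRP1 were near 0 in DMSO, and of 6 markers of other cell types KRT5 and CD3E had no count, PECAM1 and ALB reached at most 2 counts in a library, and PTPRC reached 11 counts with vehicle medians of 0.158 CPM in DMSO and 0.0977 in MAPKi. The keratin KRT14 had 0 to 0.431 CPM in DMSO and 0.674 to 2.77 in MAPKi, with at most 41 counts. The part of the higher DCT, PMEL and KRT14 in the results below was not tested.

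The first comparison asked how far the mRNAs of the machinery differed after MAPKi, over the 12 vehicle libraries of each pretreatment. They were lower almost throughout: 55 of the 57 were lower and 1, POLD4, was higher at an adjusted p under 0.05 (edgeR quasi-likelihood test, Benjamini-Hochberg), where 33.1% of all tested genes were lower and 35.8% higher. Their median log2 change was -1.08, against 0.05 over all tested genes. In bulk RNA a lower level in every cell and a smaller share of cells that express the gene cannot be told apart. In 40 of the 57 every MAPKi library lay below every DMSO library, which held for 13.2% of tested genes, and in POLD4 every MAPKi library lay above, which held for 10.2%.

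Origin licensing had the largest median fall, with all 15 genes lower and a median of -1.31. MCM7, a subunit of the MCM2-7 ring and the most abundant licensing mRNA in DMSO, had 328, 363 and 416 CPM (lowest, median and highest of 12 libraries) in DMSO and 99.2, 142 and 190 in MAPKi. These ranges did not meet, and the log2 change was -1.41 ± 0.0527 (SE; 2.66-fold lower, edgeR adjusted p = 1.2e-38). MCM4 ran from 332 to 411 CPM in DMSO and from 110 to 206 in MAPKi, and MCM3 from 232 to 309 and from 74.4 to 149. The other ring subunits fell by 1.36 on the log2 scale for MCM3, 1.31 for MCM6, 1.30 for MCM4, 1.22 for MCM2 and 0.82 for MCM5. MCM5 was the subunit whose groups overlapped, with 137, 151 and 189 CPM in DMSO and 57.7, 85.5 and 141 in MAPKi. MCM6 had 70.7, 84.6 and 91.2 CPM in DMSO and 22.9, 34.8 and 46.6 in MAPKi, and MCM2 had 96.8, 190 and 239 against 57.3, 81.0 and 93.8.

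The loaders of the ring and their inhibitor were lower too. CDC6, which joins ORC to recruit the helicase, had 101, 120 and 134 CPM in DMSO and 24.2, 34.2 and 53.3 in MAPKi, a log2 change of -1.75 ± 0.0695 (3.36-fold lower, edgeR adjusted p = 7.45e-37). CDT1, its partner, had 66.0, 73.4 and 92.3 CPM in DMSO and a highest MAPKi library of 45.2, and fell by 1.41 on the log2 scale. Geminin (GMNN), the inhibitor of CDT1, had 71.8, 89.3 and 100.0 CPM in DMSO and 24.8, 33.4 and 37.5 in MAPKi and fell by 1.49. The ORC subunits covered a wide range of changes. ORC6 and ORC1, the smallest and the largest subunit, fell by 1.65 ± 0.116 and 1.61 ± 0.121 on the log2 scale (edgeR adjusted p = 5.25e-22 and 1.32e-20), ORC5 by 0.71, ORC2 by 0.52, ORC3 by 0.51 and ORC4 by 0.27. ORC1 was the scarcest of these in DMSO, with a median of 14.8 CPM there and 4.47 in MAPKi.

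All 9 helicase activation genes were lower, with a median of -1.08. MCM10, an activator of the loaded helicase, had 61.6, 79.5 and 96.3 CPM in DMSO and 9.36, 14.5 and 23.9 in MAPKi. The lowest DMSO library was thus above the highest MAPKi library, and the log2 change of -2.38 ± 0.0839 (5.22-fold lower, edgeR adjusted p = 2.75e-40) was the second largest fall of the 57. The helicase cofactor CDC45 fell by 1.55 on the log2 scale and the GINS subunits by 1.38 (GINS1), 1.07 (GINS2), 1.01 (GINS3) and 1.08 (GINS4). Treslin (TICRR), which brings CDC45 to origins, had 9.66, 20.2 and 25.6 CPM in DMSO and 6.71, 8.53 and 11.9 in MAPKi, so that its groups overlapped while its mean fell by 1.13. TOPBP1, the most abundant mRNA of the set in DMSO at a median of 128 CPM, fell by 0.87 and DONSON, which brings GINS to the helicase, by 0.98.

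The replicative polymerases held both extremes. POLE, the catalytic subunit of the leading strand polymerase epsilon, had 45.9, 52.6 and 59.2 CPM in DMSO and 3.10, 4.82 and 7.20 in MAPKi. The log2 change of -3.47 ± 0.107 (11.1-fold lower, edgeR adjusted p = 3.56e-44) was the largest of the 57, and of the 12 polymerase and primase genes 11 were lower. The partners of POLE had log2 changes of -1.39 (POLE2), -1.103 (POLE3) and -0.38 (POLE4). POLD4, the smallest subunit of the lagging strand polymerase delta, went the other way, with 24.1, 28.6 and 34.2 CPM in DMSO and 83.6, 92.7 and 111 in MAPKi. Its log2 change was 1.71 ± 0.0647 (3.27-fold higher, edgeR adjusted p = 3.11e-38), while POLD3 fell by 1.09, POLD1 by 0.81 and POLD2 by 0.61. The last 1000 bases of POLD4 overlap RAD9A on the other strand and another gene on its own strand, and whether strand was used in counting is not stated, so its count is uncertain. The priming enzymes POLA1, POLA2, PRIM1 and PRIM2 fell by 0.98, 1.12, 1.19 and 0.68.

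All 9 clamp and lagging strand genes were lower, with a median of -0.94. PCNA, the sliding clamp, had 114, 154 and 194 CPM in DMSO and 42.7, 54.9 and 71.7 in MAPKi, a log2 change of -1.43 ± 0.101 (2.70-fold lower, edgeR adjusted p = 4.01e-22). All 5 subunits of its loader were lower, with falls on the log2 scale of 1.59 ± 0.0543 for RFC3 (edgeR adjusted p = 2.91e-41), 1.53 for RFC4, 1.09 for RFC2, 0.51 for the large subunit RFC1 and 0.36 for RFC5. FEN1, the flap nuclease, fell by 0.94, the ligase LIG1 by 0.71 and DNA2 by 0.63.

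The 8 fork genes were all lower, with a median of -1.001. CLSPN, the mediator of the fork checkpoint and the most abundant of them in DMSO, had 196, 214 and 236 CPM in DMSO and 52.5, 63.0 and 90.4 in MAPKi, a log2 change of -1.69 ± 0.0589 (3.23-fold lower, edgeR adjusted p = 1.29e-40). TIPIN, of the fork protection complex, had 30.4, 34.6 and 38.6 CPM in DMSO and 4.34, 8.79 and 11.5 in MAPKi and fell by 2.00 ± 0.0953 (edgeR adjusted p = 8.17e-32), whereas its partner TIMELESS fell by 0.39. RPA1, the large subunit of the single-strand binding complex, had the smallest change that passed the test, -0.16 ± 0.0587 (edgeR adjusted p = 0.0127), with overlapping groups of 88.5, 104 and 114 CPM in DMSO and 80.6, 91.8 and 109 in MAPKi. RPA2 fell by 1.04 and RPA3 by 0.34.

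Nucleotide supply was the most divided group, with 3 of 4 genes lower. RRM2, the small subunit of ribonucleotide reductase and the most abundant of the 57 in DMSO, had 399, 449 and 476 CPM in DMSO and 83.9, 129 and 186 in MAPKi. Its log2 change was -1.79 ± 0.0546 (3.45-fold lower, edgeR adjusted p = 2.23e-44), while the large subunit RRM1 fell by 0.59 and thymidylate synthase (TYMS) by 0.88. Thymidine kinase (TK1) was the one gene of the 57 that did not pass the test, with 146, 159 and 166 CPM in DMSO, 116, 158 and 179 in MAPKi and a log2 difference of -0.08 (95% interval from -0.17 to 0.02, edgeR adjusted p = 0.153). QuantSeq reads the 3′ end of a transcript, so levels were not divided by length, and on this scale RRM2 moved from rank 1 of the 57 in DMSO to rank 7 in MAPKi, TK1 from 12 to 3, POLD4 from 47 to 11 and POLE from 33 to 54.

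**Figure D2:**
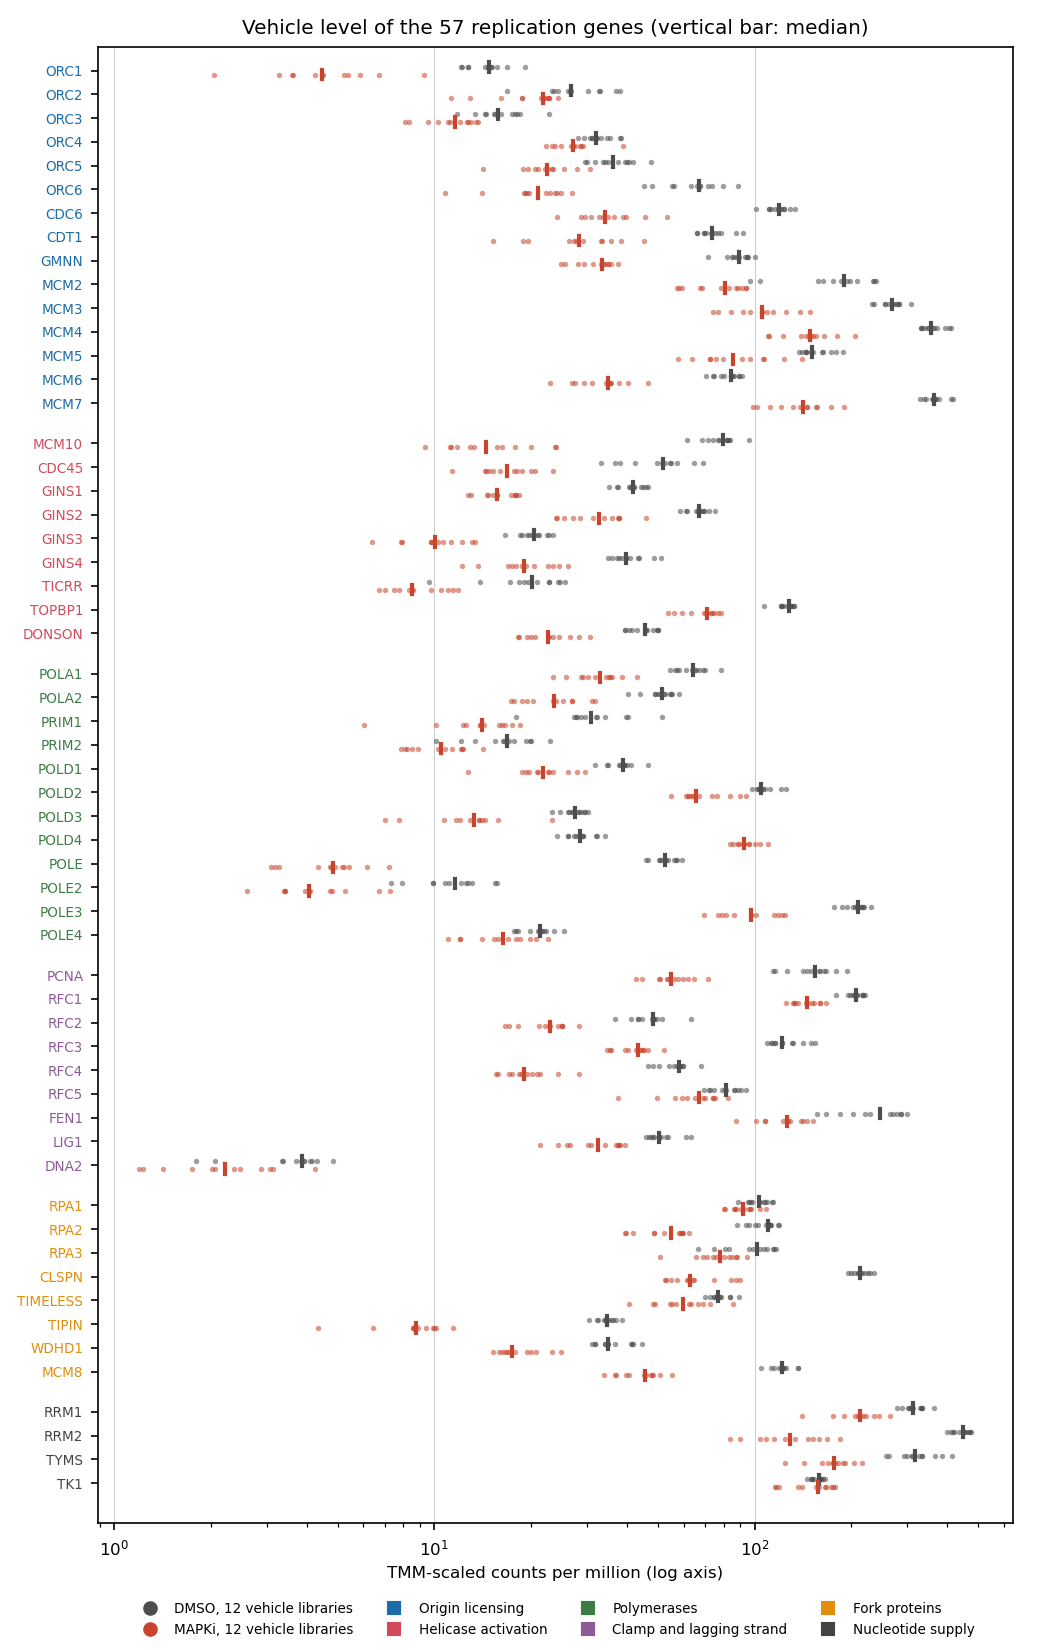
Vehicle level in CPM (log axis) of each of the 57 genes, ordered by role, with 1 point for each of the 12 DMSO and 12 MAPKi libraries. The MAPKi points of POLE lie between 3.10 and 7.20 and its DMSO points between 45.9 and 59.2, POLD4 has the opposite order, and the 2 groups of TK1 overlap.

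The 22 genes with an E2F-type match had a median log2 change of -1.33 (from -3.47 to -0.38, all lower), and the 27 without one had -0.94 (from -2.38 to 1.71, 25 lower). MCM10, ORC1, RRM2, TIPIN and POLD4 have no match in their window. Of 24 further genes of the pathway, 22 were tested, 19 were lower and 3 higher, with a median of -0.82. The epigenetic cofactor UHRF1 (-1.85) and the clamp loader subunit DSCC1 (-1.72) had the lowest changes, and SAMHD1, which degrades deoxynucleotides, was higher (0.84), as were RNASEH2C (0.58) and RRM2B (0.53), the p53-induced small subunit of the reductase.

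The vehicle arm also tells whether the level was steady over the 5 h of the experiment. In DMSO 1 of the 57, ORC2, differed at 5 h from 0 h, falling by 0.67 on the log2 scale (0.582% of tested genes were higher and 0.482% lower). In MAPKi 15 were lower and none higher (edgeR; 1.26% of tested genes were higher and 2.07% lower), with a median log2 change of -0.32 against 0 over all genes, and 54 of the 57 had a negative value. The falls were in 7 licensing genes, 3 fork genes, 3 nucleotide genes and 2 clamp genes, and none of the activation or polymerase genes passed the test. CDT1 had 29.0, 33.1 and 35.6 CPM at 0 h and 18.9, 19.6 and 15.2 at 5 h in MAPKi. All 3 later libraries were below all 3 earlier ones, and the change was -0.87 on the log2 scale. MCM7 had 132, 173 and 145 CPM at 0 h and 102, 112 and 99.2 at 5 h, MCM3 92.3, 138 and 105 and then 76.7, 84.1 and 74.4, and RRM2 115, 168 and 134 and then 83.9, 104 and 89.9.

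In DMSO none of these 4 genes passed the same test. CDT1 had 73.1, 69.4 and 66.1 CPM at 0 h and 87.5, 78.3 and 66.0 at 5 h, MCM7 361, 328 and 339 and then 411, 416 and 361, MCM3 256, 255 and 237 and then 309, 283 and 276, and RRM2 421, 435 and 412 and then 399, 418 and 452. These 4 genes were called in the test of the difference between pretreatments, in which 0.254% of tested genes were called higher and 0.482% lower. The difference of the 5 h change was -1.02 ± 0.209 for CDT1 (edgeR adjusted p = 0.00594), -0.73 ± 0.147 for MCM7 (0.00561), -0.73 ± 0.149 for MCM3 (0.00594) and -0.58 ± 0.151 for RRM2 (0.0385). None of the 4 passed when replicate 1, 2 or 3 was left out, with values between -0.93 and -1.07 for CDT1, so the call rests on all 3 libraries of each group.

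**Figure D3:**
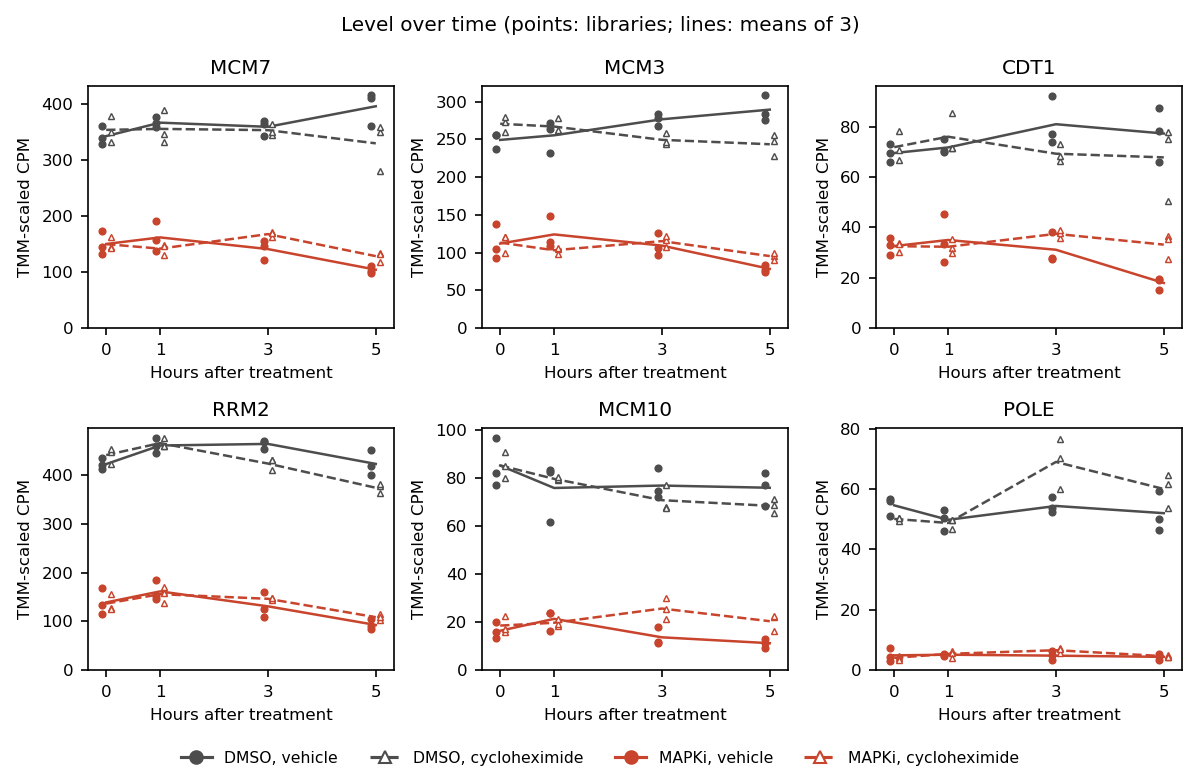
Level in CPM of MCM7, MCM3, CDT1, RRM2, MCM10 and POLE by time (0, 1, 3 and 5 h) in vehicle (solid lines, circles) and CHX (dashed lines, triangles), with 1 point per library and lines through the means. The DMSO lines stay above the MAPKi lines, and in MAPKi the CHX line of MCM10 is above its vehicle line at 3 and 5 h.

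The next comparison asked what blocking translation does to these mRNAs while transcription continues, by setting CHX against vehicle at the same times (mean of 3 and 5 h). In DMSO 4 of the 57 were higher with CHX and 10 lower, where 18.3% of tested genes were higher and 13.4% lower. In MAPKi 25 were higher and 2 lower, where 15.9% of tested genes were higher and 13.9% lower (edgeR). The median log2 change of the 57 was -0.09 in DMSO and 0.20 in MAPKi, against 0.01 and -0.01 over all genes. The difference between pretreatments was called in 19 of the 57, all of them higher in MAPKi, where 4.64% of tested genes were called higher and 6.6% lower. By role these were 7 licensing, 5 fork, 3 clamp, 2 activation, 1 polymerase and 1 nucleotide genes. With stable-gene factors 10 were higher and 1 lower in DMSO and 46 higher and none lower in MAPKi, so the balance in DMSO turned with the scaling. At 5 h in MAPKi these factors were 0.47 to 0.64 below TMM (log2) in CHX and 0.09 to 0.23 below in vehicle. That raises every gene with CHX. The share of all tested genes with these factors is not given, so the counts cannot be read as a trait of the 57. With TMM in DMSO, 9 were called without replicate 1 and 6 without replicate 3. After 1 h of CHX none of the 57 passed in either pretreatment (edgeR). At the same adjusted threshold 0.0736% of tested genes were higher and 0% lower in DMSO, and 0.0602% and 0.0134% in MAPKi. At an unadjusted p under 0.05 in edgeR the counts of the 57 were 1 in DMSO and 8 in MAPKi. The share of all tested genes at that unadjusted threshold is not given, so these counts cannot be read as a result about the 57.

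MCM10 had the largest difference. In MAPKi its vehicle libraries had 11.8, 17.8 and 11.2 CPM at 3 h and 11.2, 12.9 and 9.36 at 5 h, and its CHX libraries 25.2, 30.2 and 21.4 and then 22.1, 22.5 and 16.4. Every CHX library was above the vehicle libraries of its time, by 0.91 ± 0.122 on the log2 scale (1.88-fold higher, edgeR adjusted p = 4.89e-09). In DMSO vehicle libraries had 84.1, 71.8 and 74.3 CPM at 3 h and 81.9, 68.4 and 77.2 at 5 h and CHX libraries 68.0, 76.8 and 67.2 and then 71.0, 68.6 and 65.3, which overlap. The difference of the 2 changes was 1.05 ± 0.162 (edgeR adjusted p = 1.06e-06).

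CDT1 followed, with a difference of 0.80 ± 0.145 (edgeR adjusted p = 2.84e-05). In MAPKi it had 18.9, 19.6 and 15.2 CPM in vehicle and 27.2, 36.8 and 35.4 in CHX at 5 h, without overlap. WDHD1, which ties polymerase alpha to the helicase, had 15.2, 20.1 and 16.2 CPM in vehicle and 30.0, 25.4 and 26.8 in CHX at 5 h in MAPKi, and 41.2, 41.8 and 34.2 against 30.7, 36.7 and 33.7 in DMSO, a difference of 0.72 ± 0.139 (edgeR adjusted p = 9.45e-05). MCM6 moved in opposite directions, from 27.5, 22.9 and 26.8 CPM to 29.5, 37.5 and 32.6 in MAPKi and from 74.6, 70.7 and 74.2 to 52.0, 60.0 and 53.2 in DMSO at 5 h, a difference of 0.63 ± 0.138 (edgeR adjusted p = 0.00055). CLSPN had 52.5, 57.1 and 53.0 CPM in vehicle and 77.6, 74.6 and 79.1 in CHX in MAPKi, against 215, 229 and 211 and 199, 190 and 168 in DMSO, a difference of 0.53 ± 0.115 (edgeR adjusted p = 0.000493). ORC1 (0.71 ± 0.235, edgeR adjusted p = 0.0358) lost its call without replicate 1, 2 or 3 (0.78, 0.76 and 0.70). Without replicate 1 and without replicate 3 the count of 19 fell to 10 and 8.

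The call depends on what CHX is set against, since the MAPKi vehicle libraries fell over the same hours. The summed level of the 57 in MAPKi was 3228 ± 271 CPM (SD, n = 3) in vehicle at 0 h and 2479 ± 167 at 5 h, and 3192 ± 138 and 2870 ± 184 in CHX. In DMSO it was 5998 ± 119 and 5816 ± 167 in vehicle and 6042 ± 53.9 and 5418 ± 80.3 in CHX. When CHX at 3 and 5 h was set against CHX at 0 h, an alternative added after the data had been seen, 5 of the 57 were higher and 7 lower in MAPKi (13.4% and 13.7% of tested genes) and 1 higher and 8 lower in DMSO (15.5% and 12% of tested genes). In that form the difference between pretreatments was called for MCM10 alone (0.59, edgeR adjusted p = 0.0401), where 3.56% of tested genes were called higher and 4.94% lower. At 3 and 5 h MAPKi still lowered 52 of the 57 within the CHX arm (31.6% of tested genes; median -0.86) and 55 within vehicle (28.3%; median -1.17), with POLD4 higher in both (27.9% and 29.5% of tested genes were higher).

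**Figure D4:**
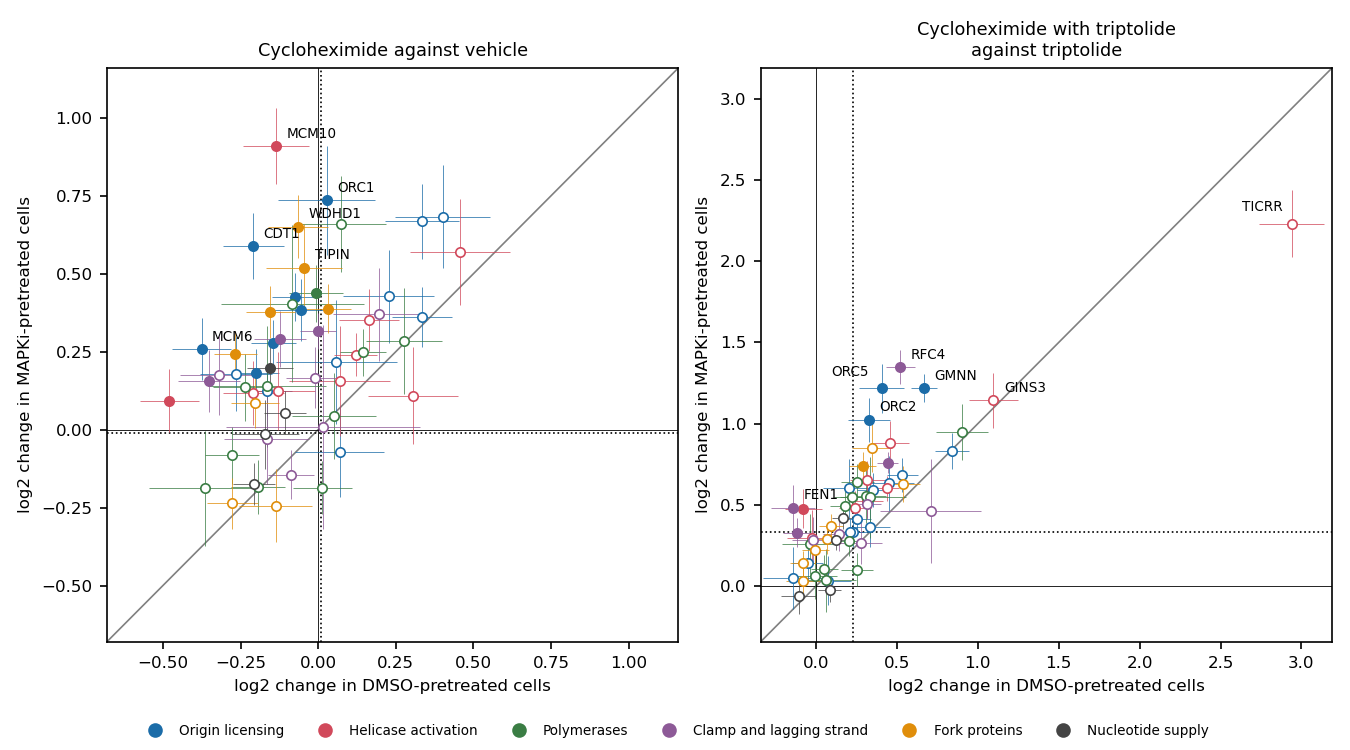
Log2 change with CHX (left, against vehicle; right, with triptolide, against triptolide alone) in DMSO (horizontal axis) and MAPKi (vertical axis) for the 57 genes, coloured by role, with SE bars, filled points where the difference between pretreatments was called, and dotted lines at the medians of all tested genes. On the left most genes lie above the diagonal, with MCM10 furthest from it, and on the right RFC4, ORC5 and GMNN lie above it.

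Decay was read from triptolide, with counts scaled to 36 stable genes, and none of the 57 was among those genes. The study asked that stable genes rise after 3 or 5 h of triptolide, which was read here as both, and the reading as either gave 526 stable genes and called 35 of the 57 for decay in DMSO and 31 in MAPKi. Between 0 h and the mean of 3 and 5 h, 37 of the 57 fell in DMSO and 31 in MAPKi and none rose, where 45.2% and 55.2% of tested genes fell and 1.31% and 1.45% rose (edgeR). Without replicate 3 the count in DMSO was 24. The median log2 change of the 57 was -0.40 in DMSO and -0.50 in MAPKi, against -0.44 and -0.60 over all genes. These splits follow the scaling: with TMM, which centres the median of all genes near 0, DMSO had 8 genes that rose and 12 that fell, and MAPKi had 21 that rose and 8 that fell. The shares of all tested genes with TMM or with 526 stable genes are not given. Those counts therefore cannot be read as a trait of the 57. At 5 h the median member had 69.8% ± 3.33 (SD, n = 3) of its 0 h level left in DMSO and 66.2% ± 2.54 in MAPKi, where the median tested gene with a mean of at least 10 counts had 68.4% ± 3.47 and 59.6% ± 1.15. Each 5 h library was divided by the mean of the 3 libraries at 0 h. The SDs of all percents left therefore leave out the spread at 0 h. Each MAPKi decay value under triptolide alone has replicate 2 in its 0 h baseline, the shallowest library of the series (2381351 counts). Its median correlation with its group, 0.965, was the lowest of all. Its stable-gene factor was 0.32 below TMM on the log2 scale, against 0.05 and 0.01 for replicates 1 and 3.

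TICRR had the largest fall. In DMSO its level, in CPM scaled to the stable genes, was 28.6, 18.1 and 22.9 at 0 h, 4.64, 2.59 and 1.15 at 3 h and 1.34, 1.53 and 1.57 at 5 h of triptolide. It dropped in every library, by 3.52 ± 0.223 on the log2 scale (11.5-fold lower, edgeR adjusted p = 5.85e-24), and 6.39% ± 0.549 was left at 5 h. In MAPKi it had 8.45, 7.49 and 7.16 at 0 h and 0.597, 1.93 and 1.18 at 5 h, a change of -1.85 ± 0.268 (3.61-fold lower, edgeR adjusted p = 7.62e-09). The difference of 1.67 ± 0.359 was called (edgeR adjusted p = 0.00156, and from 0.000209 to 0.115 over 12 alternatives), in a test that called 0.421% of tested genes higher and 3.85% lower. The call was kept in 10 of the 12 alternatives, and the fit without replicate 2 (1.601) was among those that lost it. TICRR lies at chr15:89575469-89631056 on GRCh38, plus strand, and its last 1000 bases overlap KIF7 on the other strand, so its count is uncertain.

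The opposite difference was found for RFC4, which had 60.3, 53.6 and 55.4 CPM at 0 h and 31.0, 31.0 and 24.8 at 5 h in DMSO and 17.6, 30.0 and 18.6 and then 4.68, 5.94 and 5.75 in MAPKi. The MAPKi value of 30.0 at 0 h is from replicate 2, the shallowest library of the series. Less was left in MAPKi, with a difference of -0.63 ± 0.177 on the log2 scale (edgeR adjusted p = 0.0209), a call kept in 7 of 12 alternatives and lost with TMM (-0.41), without a filter on low counts (-0.63), against the vehicle arm at 0 h (-0.46) and without replicate 1 (-0.70) or 2 (-0.37), and its last 1000 bases overlap EIF4A2 on the other strand. POLD1 (-0.52 ± 0.162, edgeR adjusted p = 0.0474) passed in 2 of 12 alternatives and in none that left out a replicate. The last 1000 bases of POLD1 overlap another gene on its own strand, so its count is uncertain. Among the other short-lived members, CDT1 had 38.1% ± 3.58 left at 5 h in DMSO and 45.8% ± 4.21 in MAPKi, and GMNN had 46.8% ± 1.25 and 43.0% ± 8.57. More was left of 2 ring subunits, with 79.4% ± 2.06 and 60.4% ± 3.83 for MCM7 and 78.7% ± 7.87 and 62.9% ± 4.97 for MCM3. Nucleotide supply had the highest median left of any role in both pretreatments, with 81.7% ± 4.99 and 85.7% ± 11.9 left for RRM2, and none of its 4 genes fell in MAPKi. Over the 57 genes, which share the same libraries, the MAPKi change of level and the change under triptolide had a Spearman rho of 0.30 in DMSO and 0.26 in MAPKi.

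CHX given with triptolide asks how much of that decay needs translation. Against triptolide alone, 26 of the 57 were higher with both drugs in DMSO and 40 in MAPKi, and none was lower, where 28.4% and 41.4% of tested genes were higher and 0.468% and 0.535% lower (edgeR). Without replicate 1 or 3 the count in DMSO was 15 or 12. With TMM the split was 10 higher and 7 lower in DMSO and 15 higher and 7 lower in MAPKi. The shares of all tested genes with TMM are not given, so that split cannot be read as a trait of the 57. The stable genes were chosen for a rise under triptolide alone, with no condition on TCHX, so the direction of the split depends on that choice. The median log2 change of the 57 was 0.24 in DMSO and 0.48 in MAPKi, against 0.23 and 0.34 over all genes. At 5 h of both drugs the median member had 85.4% ± 2.25 left in DMSO and 104.7% ± 5.12 in MAPKi, and the median tested gene 82.0% ± 3.31 and 89.4% ± 1.82. If transcription is blocked, a value above the 0 h level cannot be a true share left. These percents are relative to the stable genes and are not amounts.

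TICRR was again first, at 12.5, 13.8 and 14.2 CPM in the DMSO libraries and 9.08, 10.5 and 7.47 in the MAPKi libraries after 5 h of both drugs, far above the triptolide libraries given above. Its log2 change was 2.94 ± 0.201 in DMSO (7.67-fold higher, edgeR adjusted p = 8.11e-22) and 2.23 ± 0.205 in MAPKi (4.70-fold higher, 6.9e-16). RFC4 then had 51.6, 42.7 and 42.2 CPM in DMSO libraries and 20.6, 20.4 and 22.2 in MAPKi libraries, and 101% ± 4.73 of its 0 h level was left in MAPKi with both drugs against 24.8% ± 3.09 with triptolide alone. These SDs leave out the spread of the 0 h libraries, whose triptolide values are given above. The log2 change of RFC4 in MAPKi was 1.35 ± 0.106 (edgeR adjusted p = 4.2e-19), and those of GMNN and ORC5 were 1.22 ± 0.0851 and 1.22 ± 0.152.

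The effect of CHX under triptolide was larger in MAPKi for 9 of the 57 and smaller for none, where 6.82% of tested genes were called higher and 0.294% lower. The count was 1, 3 and 7 without replicate 1, 2 and 3 in turn, and 2 with TMM. The 9 were 4 clamp genes (RFC4, FEN1, RFC5 and RFC1), 3 licensing genes (ORC5, ORC2 and GMNN), GINS4 and CLSPN. RFC4 had the largest difference, 0.83 ± 0.140 (edgeR adjusted p = 1.61e-05), and passed in 11 of 11 alternatives. ORC5 had 0.81 ± 0.207 (0.00588), and GMNN, which inhibits origin licensing, 0.55 ± 0.115 (0.000479). The calls of ORC5 and ORC2 were lost without replicate 1 (0.85 and 0.72) or 2 (0.88 and 0.70), and those of FEN1 and GINS4 without any of the 3 replicates (from 0.54 to 0.70 for FEN1 and from 0.46 to 0.66 for GINS4). Of 11 alternatives GMNN passed in 9, CLSPN in 7, RFC5 in 6 and RFC1 in 4. MCM2 had the highest percent left of the ring subunits in MAPKi, at 135% ± 25.9 with triptolide and 113% ± 22.1 with both drugs, whose SD ranges overlap. Both values are above the 0 h level and so are not true shares left.

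**Figure D5:**
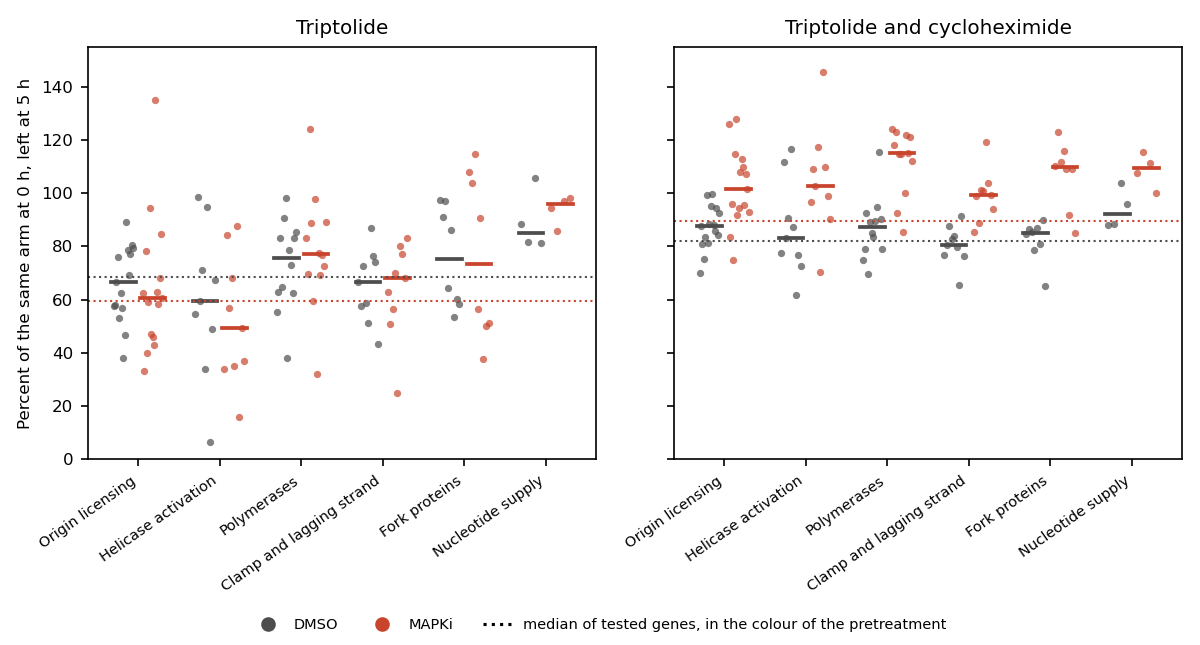
Percent of the 0 h level of the same arm left at 5 h (vertical axis), with 1 point per gene at the mean of 3 libraries, by role, for triptolide (left) and triptolide with CHX (right). Bars are medians by role and dotted lines the medians of all tested genes. TICRR is the lowest point on the left at 6.39% in DMSO, and on the right the MAPKi medians lie above those of DMSO in every role.

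The translation-dependent decay (TDD) index of the study sets these arms against the vehicle level at 0 h, as the count with both drugs minus that with triptolide, divided by the vehicle count. The median index of the 57 was 0.126 ± 0.0396 (SD, n = 3) in DMSO and 0.266 ± 0.0295 in MAPKi, against 0.122 ± 0.0343 and 0.183 ± 0.0115 over the 11422 genes tested. It was higher in MAPKi in 52 of the 57 (91.2%, against 68.6% of tested genes). None of the 57, and none of the 11422, passed the adjusted threshold in limma, a share of 0%. At an unadjusted p under 0.05, 20 of the 57 (35.1%) were higher and none lower, where 13.2% of tested genes were higher and 1.77% lower. The 3 and 5 h values of a replicate number are divided by the same vehicle library, so they are not independent. The unadjusted p-values may therefore be too small. RFC4 had 0.234 in DMSO and 0.598 in MAPKi (limma adjusted p = 0.16) and ORC5 had 0.180 and 0.516 (limma adjusted p = 0.157), values that do not pass. TICRR had the highest index of those named, 0.661 in DMSO and 0.898 in MAPKi, with an adjusted p of 0.389 in limma.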

How the data were processed

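The authors deposited raw counts, whole numbers of reads per gene with no normalization, in 1 table of 96 libraries. Their notes name fastp 0.20.1, HISAT2 2.2.1, HTSeq 0.13.5 and GRCh38.p13. Strand in counting and molecular identifiers are not given in the sources used here, so repeated reads of a molecule count separately and counts of overlapping genes are uncertain (30 of 57 members overlap another gene, 18 in their last 1000 bases). The spike-in mix was not used here.

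Groups followed the labels. edgeR 4.0.16 in R 4.3.3 fitted 1 quasi-likelihood model with 32 group means (64 residual degrees of freedom) to the 14948 genes kept by filterByExpr. TMM scaled level and CHX contrasts, and DESeq2 1.42.0 median-of-ratios factors over 36 stable genes scaled triptolide contrasts. Stable genes had over 0.2 CPM in vehicle at 0 h and at least 1.1 times that at 3 and 5 h of triptolide, where the study wrote 3 or 5 h. Errors are standard errors of the fit and include the spread between libraries. The TDD index used limma 3.58.1 with terms for condition, time and replicate, for genes with at least 10 normalized counts initially. Scripts were tested on simulated data. Full statistics are given for at most 10 members per comparison, the largest called changes and the highest level of each role. The members, lists and contrasts were chosen with earlier results of these data known, and CHX against its own 0 h was added after seeing the data.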

Additional observations from a re-analysis of the deposited data

Results flagged for a closer look

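In 35 cases the effect of a drug or of time on a gene of the machinery differed between MAPKi and DMSO by a test of the difference itself (edgeR interaction, Benjamini-Hochberg adjusted p under 0.05), and all values here are log2 differences, MAPKi minus DMSO. Over 5 h in vehicle the differences were -1.02 for CDT1, -0.73 for MCM3, -0.73 for MCM7 and -0.58 for RRM2. After triptolide they were 1.67 for TICRR, -0.63 for RFC4 and -0.52 for POLD1.

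For CHX against vehicle, the licensing genes had 0.80 (CDT1), 0.71 (ORC1), 0.63 (MCM6), 0.50 (GMNN), 0.44 (CDC6), 0.42 (MCM7) and 0.38 (MCM3). The activation genes had 1.05 (MCM10) and 0.57 (GINS1), and the polymerase subunit POLA1 had 0.44. The fork genes had 0.72 (WDHD1), 0.56 (TIPIN), 0.53 (CLSPN), 0.51 (MCM8) and 0.36 (RPA2), the clamp loader genes 0.51 (RFC5), 0.41 (RFC4) and 0.32 (RFC1), and RRM2 had 0.35.

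For CHX under triptolide the differences were 0.83 for RFC4, 0.81 for ORC5, 0.70 for ORC2, 0.62 for FEN1, 0.55 for GMNN, 0.56 for GINS4, 0.45 for CLSPN, 0.44 for RFC5 and 0.32 for RFC1. RFC4, GMNN, CLSPN, RFC5 and RFC1 are listed in both CHX comparisons. The share of all tested genes called in both was not counted, so the overlap cannot be read as a result about these genes. With CHX set against its own 0 h, none of them was called for the difference.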

How the results depend on the processing

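The difference in level was called for 56 of the 57 genes (55 lower) and for 48 to 56 under the alternatives run (47 to 55 lower). Calls that involve triptolide moved with the scaling. With TMM, 20 genes were called for decay in DMSO (8 rose), 29 in MAPKi (21 rose), 3 for their difference (all positive), 17 and 22 for CHX under triptolide in DMSO and MAPKi, and 2 for that difference. Scaled to total counts these were 20 for decay in DMSO, 3 for the difference (2 positive), 13 for CHX under triptolide in DMSO and 5 for its difference. Scaled to mitochondrial rRNA they were 21, 9, 17 and 4. The shares of all tested genes under these scalings are not given. The counts therefore show only how the calls of the 57 moved. The median of all genes for decay in MAPKi was -0.60 with stable genes and 0.06 with TMM. Without a filter on low counts, 7 genes were called for the vehicle change between pretreatments and 1 for decay between pretreatments, and a DESeq2 Wald test called 9 for the former. For CHX against vehicle, stable-gene factors gave 11 genes in DMSO (10 higher) and 46 in MAPKi (46 higher). Stable-gene factors raise all genes in CHX relative to vehicle, and the share of all tested genes with them is not given. CHX against its own 0 h gave 9, 12 and, for the difference, 1. The causes were not tested.

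At 1 h of CHX edgeR called 0 genes in DMSO, 0 in MAPKi and 0 for the difference (1, 8 and 6 at an unadjusted p under 0.05). The share of all tested genes at the unadjusted threshold is not given. Signs that changed at 1 h were those of GINS1 (0.13), TICRR (-0.23) and ORC6 (-0.11) in DMSO, of MCM10 (-0.10), ORC2 (-0.0053) and POLD3 (-0.17) in MAPKi, and of MCM10 (-0.17), CDT1 (-0.18) and WDHD1 (-0.12) for the difference.

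Leaving out 1 replicate gave 0 to 0 genes for the vehicle change between pretreatments, 24 to 29 for decay in DMSO, 26 to 32 in MAPKi and 0 to 4 for their difference (1, with the opposite balance of signs, without replicate 1). It gave 6 to 11 genes for CHX against vehicle in DMSO, 18 to 21 in MAPKi and 8 to 19 for their difference, and 12 to 24, 35 to 37 and 1 to 7 for CHX under triptolide. In the main edgeR fits replicate numbers were not used as pairs. The labels give same-numbered libraries a common prefix but name no shared culture, and 35 of 84 same-numbered pairs correlated over 0.1 (from -0.380 to 0.650). Still, 63 of 96 libraries correlated best with their own number, a hint from the data that same-numbered libraries share something. The TDD index and the choice of stable genes did set same-numbered libraries against each other. With a replicate block the counts were 56 for level, 6 for the vehicle change between pretreatments, 38, 31 and 4 for decay, 15, 29 and 21 for CHX and 30, 40 and 9 for CHX under triptolide. TDD calls after adjustment were 0 under every alternative in limma. Depth limits the scarcest values, such as TICRR under triptolide in MAPKi with as few as 6 counts in a library.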

Other observations

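The 24 further pathway genes, of which 22 were tested, were set beside the 57 in the other comparisons. Over 5 h of vehicle in MAPKi 7 of the 22 were lower (2.07% of tested genes). With CHX against vehicle 3 were higher and 4 lower in DMSO and 9 higher and 3 lower in MAPKi (edgeR; 18.3% and 13.4% of tested genes in DMSO, 15.9% and 13.9% in MAPKi), and the difference was called for the checkpoint kinase CHEK1 (0.73 on the log2 scale) and the chromatin assembly subunit CHAF1A (0.58), both higher in MAPKi (4.64% of tested genes). After triptolide 9 were lower in DMSO and 11 in MAPKi (45.2% and 55.2% of tested genes). With CHX under triptolide 10 were higher in DMSO and 15 in MAPKi (28.4% and 41.4% of tested genes).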
